A study of Mus musculus with 6 samples.

Results

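The ribonuclease A (RNase A) family genes of mouse chromosome 14 were followed in RNA of the caput epididymis, the head of the duct in which spermatozoa mature. The 8 members were taken by symbol: Rnase1, Rnase4, Rnase9, Rnase10, Rnase11, Rnase12, Rnase13 and Ang, out of 24346 genes in the deposited table. Wild-type mice and mice of genotype Adgrg2-/Y, called KO here, were 8 weeks old, and each genotype had 3 libraries. Adgrg2 lies on the X chromosome and encodes a receptor of the adhesion class, known from efferent ductules and epididymis. The labels give no other allele or treatment, do not say which stretch of Adgrg2 was altered, and do not tell if a genotype's 3 libraries are separate animals. The p-values measure only the spread between these samples, part of which may be technical.

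RNase A family proteins are small secreted proteins folded around a set of disulfide bonds. In the catalytic members 2 histidines and a lysine cleave RNA, and the lysine lies in a short stretch that reads cysteine, lysine, 2 free positions, asparagine, threonine and phenylalanine. Several members with no known RNase activity are made mainly in the male reproductive tract, where the epididymal epithelium secretes them into the duct. The deposited table itself describes 5 of the 8 members, Rnase9 to Rnase13, as non-active, and the other 3, Rnase1, Rnase4 and Ang, without that remark.

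The coding sequence of that stretch differs between these sets. The 21 bases below are from GENCODE M21 transcripts on the mm10 (GRCm38) build, printed in the direction of the gene, and capitals mark codons for the same residue as in Rnase1 at the 5 fixed positions.
Rnase1 (chr14:51145683-51145703, minus strand): TGCAAGcccgtgAACACCTTC
Rnase4 (chr14:51105022-51105042, plus strand): TGCAAAcgcttcAACACCTTC
Ang (chr14:51101590-51101610, plus strand): TGCAAAgatgtcAACACCTTT
Rnase10 (chr14:51009659-51009679, plus strand): TGCataaaccagtacACGTTC
Rnase12 (chr14:51057023-51057043, minus strand): TGCagaaaggtgcatgtcTTC
Rnase9 (chr14:51039223-51039243, minus strand): TGTtacccagaacactacatt
Rnase13 (chr14:51922459-51922479, minus strand): TGCcctaagatccactatgtg
Rnase1, Rnase4 and Ang kept all 5 fixed positions. Rnase10 kept 3, Rnase12 kept 2, and Rnase9 and Rnase13 kept 1 each, the cysteine. None of these 4 had a lysine codon at the fixed lysine position, though Rnase12 and Rnase13 had one (aag) at the free position after it. A stretch was printed only if it aligned with Rnase1 without a gap and began with cysteine, so the cysteine was kept in every stretch shown by this rule. Rnase11 did not meet the rule and is not printed.

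The values are the authors' FPKM, fragments per kilobase of transcript scaled to a library's fragments, normalized between libraries, so levels can be set side by side between genes. Summed normalized counts ran from 18136864 to 21455984 per library. Summed FPKM were 691563 to 714360 for wild-type and 732542, 645173 and 931769 in KO replicates 1, 2 and 3. The median difference of a tested gene from its wild-type mean, on the log2(FPKM + 1) scale, was 0.0118, -0.0159 and 0.0549 in these KO libraries. Adgrg2 itself was at 808, 850 and 841 FPKM across wild-type libraries, whereas KO libraries had 410, 324 and 328 FPKM, with no overlap. All 5 caput markers were present in every library, with summed levels of 56826 to 62846 FPKM for wild-type, against 56438 to 65870 FPKM for the KO. These sums are mostly Gpx5, and the list did not move together: Gpx5 was higher in every KO library (47219 to 59342 FPKM, where wild-type had 33682 to 38528 FPKM). Lcn8, at 17549 to 19098 FPKM for wild-type, stood at 5278, 3156 and 480 FPKM in KO replicates 1, 2 and 3. Crisp1, at 344 to 377 FPKM for wild-type, stood there at 99.3, 205 and 40.1 FPKM. Lcn5 was higher in every KO library, at 2261, 2184 and 3112 FPKM, where wild-type replicates 1, 2 and 3 had 1852, 1067 and 822 FPKM. Adam7, at 4156 to 4357 FPKM for wild-type, stood at 4774, 3515 and 2896 FPKM in KO replicates 1, 2 and 3. The median SD of a gene on the log2(FPKM + 1) scale was 0.0669 among wild-type libraries and 0.284 among KO libraries, so the latter differed more among themselves. Leaving out KO replicate 3 gave 0.145. The 6 spermatid and sperm markers summed to 70.2 to 79.4 FPKM in wild-type and to 11.6, 5.16 and 1.03 FPKM in KO replicates 1, 2 and 3.

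All 8 members passed the filter of a mean of at least 1 FPKM, and none was called different between genotypes. Each member's log2 change, KO minus wild-type on the log2(FPKM + 1) scale, came from a limma fit of all 12799 genes that passed, with Benjamini-Hochberg adjustment over all of them at a threshold of 0.05. In that fit 0 of 8 members were called, where 32 of the 12799 genes (0.25%) were, 10 of them higher (0.0781%) and 22 lower (0.172%). At an unadjusted p under 0.05 stood 1 of 8 members, against 17.5% of all tested genes. The call count of the whole table rested on the libraries used: it was 2 with each wild-type replicate left out in turn, and 541, 17 and 631 when KO replicate 1, 2 or 3 was left out. With KO replicate 3 left out, 4.93% of tested genes were called and no member was. Of the members 4 had a positive and 4 a negative log2 change, with a median of -0.15, where the median of all tested genes was 0.01. Of these signs only that of Rnase12 turned with another scaling, quantile normalization.

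**Figure D1:**
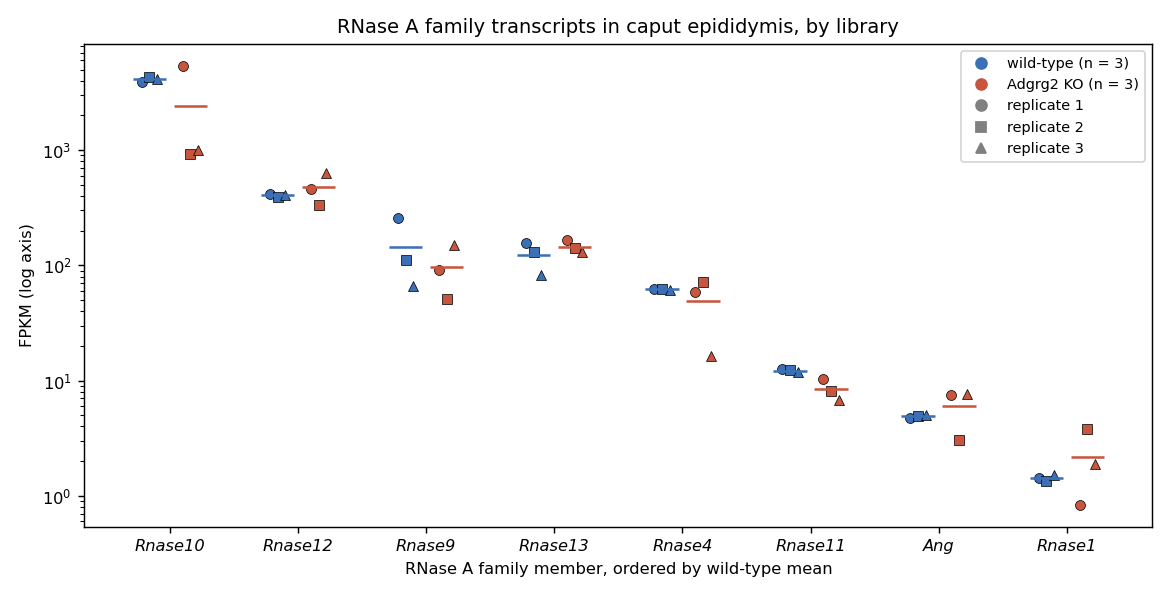
FPKM of each RNase A family member in each library, on a log axis, ordered by wild-type mean. Blue points are wild-type and red points KO libraries, shapes give the replicate number and bars the mean of 3 libraries. Rnase10 spans 926 to 5377 FPKM among KO libraries, whereas its wild-type points lie between 3930 and 4276 FPKM.

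Levels differed between members by orders of magnitude, and the order was nearly the same in both genotypes. By wild-type mean the order was Rnase10, Rnase12, Rnase9, Rnase13, Rnase4, Rnase11, Ang and Rnase1, from 4111 ± 174 down to 1.43 ± 0.0955 FPKM (SD, n = 3). The only neighbours in that order whose wild-type libraries overlapped were Rnase9 and Rnase13. In the KO Rnase13 stood above Rnase9, with the other places as in wild-type. The KO libraries overlapped between Rnase13 and Rnase9, Rnase9 and Rnase4, Rnase11 and Ang, and Ang and Rnase1.

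Rnase10 (NCBI gene 75019, chr14:51007751-51010761) was the most abundant member. It is an epididymal protein of the proximal duct, and mice that lack it have sperm that adhere poorly to the egg coat and pass poorly from uterus to oviduct. It stood at 3930, 4276 and 4127 FPKM in the wild-type libraries. KO replicates 1, 2 and 3 had 5377, 926 and 995 FPKM. KO replicates 2 and 3 lay 4.44-fold and 4.13-fold below the wild-type mean, and KO replicate 1 lay 1.31-fold above it, so the genotypes overlapped. Among all genes of a library Rnase10 ranked between place 16 and 19 by FPKM in wild-type, and at places 12, 86 and 136 in the KO libraries.

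The KO mean of Rnase10 was 2433 ± 2550 FPKM, with a log2 change of -1.27 ± 0.70 (SE; limma, 95% interval -2.96 to 0.43, adjusted p = 0.378). Without KO replicate 1 the log2 change was -2.10 with an adjusted p of 0.0131, in a fit that called 4.23% of the tested genes. Over all alternatives its adjusted p ran from 0.0131 to 0.672, with a negative change in each of the 15. In bulk RNA, fewer cells of a type and less RNA per cell cannot be told apart. The 5 luminal epithelial markers summed to 912 to 983 FPKM in wild-type and to 1265, 1132 and 1839 FPKM in the KO libraries, so they were above wild-type in KO replicates 2 and 3 also. The 5 endothelial markers summed to 47.9 to 51.6 FPKM for wild-type, against 48.6, 37.2 and 1.22 FPKM for the KO. In KO replicate 3 all 5 were below wild-type. In KO replicate 2 the lower sum came mainly from Emcn (10.2 FPKM) and Kdr (3.03 FPKM), while Pecam1 and Cdh5 lay within the wild-type range. Their part in the level of Rnase10 was not tested.

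The promoter windows of Rnase10 and its neighbour Rnase9, each from 250 bases before to 50 after a RefSeq start (GRCm38.p6), are shown because these adjacent genes had different patterns across libraries. Capitals mark matches to AGGAAG, a core that ETS factors of the PEA3 group bind, and to AGAACA, a half-site of androgen and glucocorticoid receptors, on either strand, so that CTTCCT and TGTTCT are matches too.
Rnase10 (chr14:51007679-51007978, plus strand): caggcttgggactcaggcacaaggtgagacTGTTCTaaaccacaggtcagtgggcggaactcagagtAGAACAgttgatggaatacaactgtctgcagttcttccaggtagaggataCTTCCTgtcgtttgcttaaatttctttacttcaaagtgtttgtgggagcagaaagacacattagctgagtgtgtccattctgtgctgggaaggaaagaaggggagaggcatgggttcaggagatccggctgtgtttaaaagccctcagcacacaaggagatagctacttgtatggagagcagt
Rnase9 (chr14:51041818-51042117, minus strand): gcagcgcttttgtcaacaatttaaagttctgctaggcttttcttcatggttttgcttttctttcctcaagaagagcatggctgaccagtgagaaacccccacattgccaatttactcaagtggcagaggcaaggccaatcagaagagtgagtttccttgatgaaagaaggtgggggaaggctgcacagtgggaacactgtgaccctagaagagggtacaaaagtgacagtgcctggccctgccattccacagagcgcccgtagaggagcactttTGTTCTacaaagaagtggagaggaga
The Rnase10 window shown held 1 match to AGGAAG and 2 to AGAACA. RefSeq gives Rnase10 an earlier window too, chr14:51007501-51007800, which overlaps it and held the 2 matches to AGAACA but 0 to AGGAAG, so the AGGAAG match depends on the start used. The Rnase9 window held 1 match to AGAACA and 0 to AGGAAG. Of 32851 promoter windows of the same length, 35.4% held AGGAAG and 19.0% held AGAACA, so such matches are common and mark no site. TATAAA, held by 13.6% of all windows, was in none of the 10 windows listed for the members. AGGAAG was in 6 of the 10 and AGAACA in 4, and in the second window of Rnase4, not shown, a match to each overlapped by 1 base. All 8 members had at least 1 window, and 9 of the 10 were distinct.

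**Figure D2:**
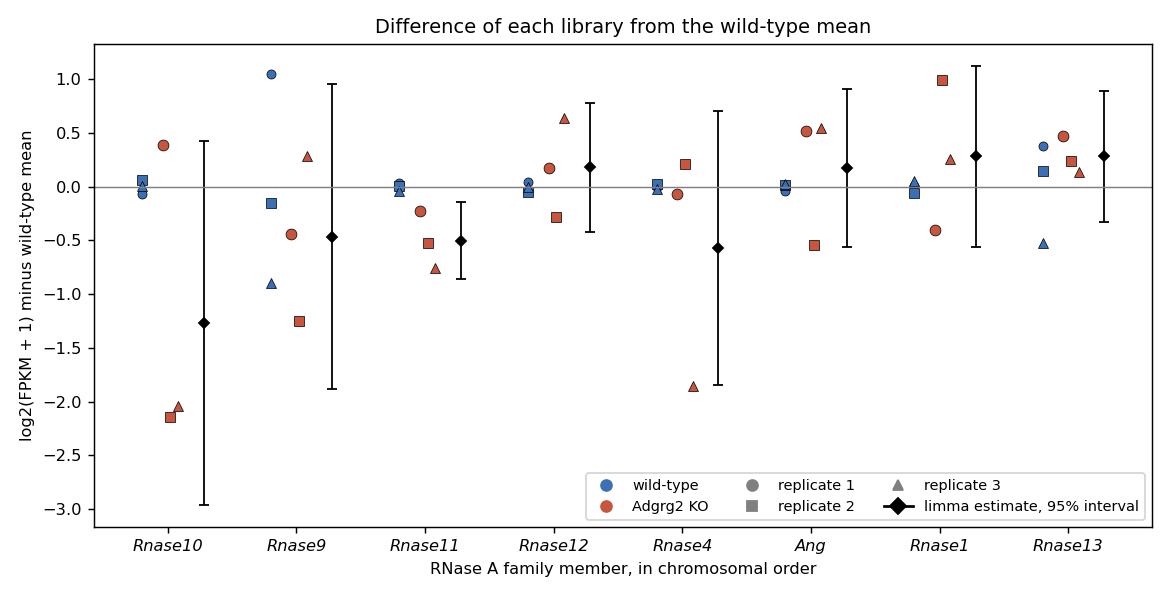
Difference of each library from the wild-type mean for the 8 members, as log2(FPKM + 1), in chromosomal order. Small blue points are wild-type and larger red points KO libraries, shapes give the replicate number, and black diamonds with bars are the limma estimate of KO minus wild-type with its 95% interval. Only the interval of Rnase11 lies wholly below 0, from -0.86 to -0.14, before adjustment over all genes.

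Rnase9 (NCBI gene 328401, chr14:51038459-51041903) begins 27.697 kb beyond the end of Rnase10, and its product is a secreted epididymal protein found on sperm. Levels were 255, 111 and 65.8 FPKM with wild-type genotype, against 90.6, 51.3 and 151 FPKM with KO genotype. The genotypes overlapped widely, and the highest and lowest wild-type libraries differed 3.88-fold. Its wild-type SD of 0.98 on the log2 scale was larger than that of 99.7% of tested genes, with 42 genes above it. The means were 144 ± 99.1 FPKM for wild-type, against 97.5 ± 50.03 FPKM for the KO, with a log2 change of -0.47 ± 0.59 (SE; adjusted p = 0.664). That sign rested on wild-type replicate 1, without which the change was 0.06.

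The pair was also compared as a ratio within each library. Rnase10 stood above Rnase9 15.4-fold, 38.6-fold and 62.7-fold in the wild-type libraries, and 59.3-fold, 18.1-fold and 6.60-fold in the KO libraries. The ratios of the genotypes overlapped, and the log2 ratio of Rnase9 to Rnase10 differed by 0.80 between them (exact two-sided permutation test, p = 0.6, where 0.1 is the smallest p that 3 against 3 libraries allow). Without KO replicate 3 this difference was 0.04, and without KO replicate 1 it was 1.62.

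Rnase12 (NCBI gene 497106, chr14:51056698-51057242), a member with no established function, was the second most abundant. It stood at 418, 392 and 405 FPKM with the wild-type genotype and 457, 333 and 632 FPKM with the KO genotype. KO replicate 2 was below and KO replicates 1 and 3 above all wild-type libraries. The log2 change was 0.18 ± 0.25 (SE; adjusted p = 0.692) between means of 405 ± 13.1 and 474 ± 150 FPKM. Without KO replicate 3 it was -0.05, and after quantile normalization it was -0.00225.

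Rnase11 (NCBI gene 497113, chr14:51048693-51055702), also of no established function, was the only member whose genotypes did not overlap. It stood at 12.5, 12.3 and 11.8 FPKM for wild-type, against 10.3, 8.17 and 6.83 FPKM for the KO. Every KO library was thus lower than every wild-type library, as in 16.1% of all tested genes. Of the 8 members 1 was lower without overlap and none higher, where 16.8% of tested genes were higher. In either direction that was 12.5% of the members against 32.9% of all tested genes, a difference that so few members cannot weigh. The means of 12.2 ± 0.370 and 8.43 ± 1.74 FPKM gave a log2 change of -0.50 ± 0.15 (SE; limma, unadjusted p = 0.0141, adjusted p = 0.197), which did not pass. Its adjusted p ran from 0.0502, without KO replicate 1, to 0.597 over the alternatives, always with a negative change. The spermatid and sperm list, given above, was likewise lower in every KO library. So was the sum of the 4 fibroblast markers, at 318 to 365 FPKM for wild-type and at 126, 268 and 28.8 FPKM for the KO. Of these markers, Col1a1 in KO replicate 2 (62.3 FPKM) lay within its wild-type range of 57.0 to 65.3 FPKM. The part of these lists in the level of Rnase11 was not tested. The values rest on 50 to 122 fragments per library, where a fragment is the smallest step of the normalized counts.

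Rnase13 (NCBI gene 497071, chr14:51921365-51923277) stands apart on the chromosome, 774.597 kb beyond Rnase1, whereas the other 7 lie within 139.017 kb. Its product is a further member with no known catalytic activity. Its levels were 155, 131 and 82.3 FPKM for wild-type, against 166, 140 and 131 FPKM for the KO. The genotypes overlapped, and here wild-type was the more spread: its log2 SD of 0.47 was above that of 99.3% of tested genes, with 94 genes larger. The means were 123 ± 37.1 and 146 ± 17.9 FPKM, with a log2 change of 0.28 ± 0.25 (SE; adjusted p = 0.542), positive under every alternative that was run.

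Rnase4 and Ang are catalytic members that share their start in the mouse. Rnase4 cleaves RNA after uridine, and Ang, angiogenin, promotes vessel growth and cleaves tRNA under stress. RefSeq gives both the same first promoter window, shown because their transcripts did not keep a constant ratio. Capitals mark the match to AGGAAG on the opposite strand.
Rnase4 and Ang (chr14:51090827-51091126, plus strand): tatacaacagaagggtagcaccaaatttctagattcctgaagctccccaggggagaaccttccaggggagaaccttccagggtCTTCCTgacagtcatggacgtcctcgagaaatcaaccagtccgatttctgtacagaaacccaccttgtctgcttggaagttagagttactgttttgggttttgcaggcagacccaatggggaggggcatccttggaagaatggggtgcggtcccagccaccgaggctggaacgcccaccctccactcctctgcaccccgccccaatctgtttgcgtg
In the GENCODE annotation the genes share 219 exonic bases in 2 blocks, chr14:51091150-51091253 and chr14:51096359-51096473. These bases are 18.2% of the exonic bases of Ang and 13.4% of those of Rnase4.

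Rnase4 (NCBI gene 58809, chr14:51091077-51106151) was even in all but 1 library. It stood at 61.8, 62.9 and 60.8 FPKM across wild-type libraries, whereas KO libraries had 58.8, 71.7 and 16.4 FPKM. KO replicate 3 alone stood apart, 3.77-fold below the wild-type mean. The log2 change was -0.57 ± 0.53 (SE; adjusted p = 0.557) between means of 61.8 ± 1.05 and 48.9 ± 28.9 FPKM, and 0.07 without KO replicate 3.

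Markers of other cell types were low in the same library. In KO replicate 3 the 5 smooth muscle markers summed to 48.4 FPKM against 494 to 530 FPKM in wild-type, with 398 and 548 FPKM in KO replicates 1 and 2. The 5 endothelial markers summed there to 1.22 FPKM. The 4 fibroblast markers summed to 28.8 FPKM against 318 to 365 FPKM in wild-type, with 126 and 268 FPKM in KO replicates 1 and 2. The 5 basal cell markers summed to 27.0 FPKM against 159 to 165 FPKM, with 170 and 220 FPKM in the other KO libraries. No marker of these 4 lists was at 0 in KO replicate 3.

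The macrophage list was split. Its 5 markers summed to 87.7 to 92.5 FPKM in wild-type and to 63.8, 125 and 86.0 FPKM in the KO, but in KO replicate 3 its genes Adgre1, Csf1r, C1qa and Cx3cr1 were below every wild-type library and Cd68 above. Csf1r was there at 2.70 FPKM, where wild-type had 13.98 to 14.5 FPKM, and Cd68 at 62.6 FPKM, where wild-type had 17.4 to 21.4 FPKM. The 4 clear cell markers summed to 86.1 to 91.6 FPKM in wild-type and to 87.3, 89.7 and 171 FPKM in the KO. This list was split too. Foxi1, Atp6v1b1 and Atp6v1g3 were above every wild-type library in each KO library, and Atp6v0d2 was below every wild-type library in each. Eosinophil markers were at or near 0, with sums of at most 0.11 FPKM. The part of any of these cell types in the level of Rnase4 was not tested.

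**Figure D3:**
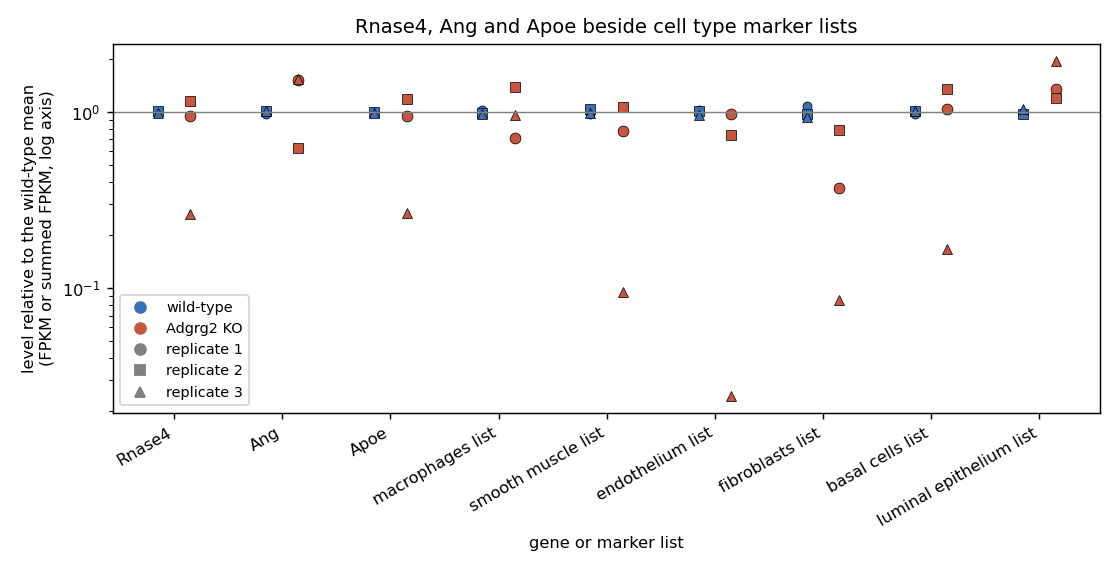
Levels of Rnase4, Ang, Apoe and the summed marker lists in each library relative to the wild-type mean, on a log axis. Blue points are wild-type and red points KO libraries, and shapes give the replicate number. KO replicate 3 is low for Rnase4 (16.4 FPKM), Apoe and 4 of the 6 marker lists plotted (smooth muscle, endothelium, fibroblasts and basal cells), and high for Ang and the luminal list.

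Ang (NCBI gene 11727, chr14:51091077-51102009) was at 4.76, 4.97 and 4.99 FPKM with the wild-type genotype and 7.45, 3.06 and 7.61 FPKM with the KO genotype. KO replicates 1 and 3 were above and KO replicate 2 below all wild-type libraries. The means were 4.91 ± 0.129 and 6.04 ± 2.58 FPKM, with a log2 change of 0.17 ± 0.30 (SE; adjusted p = 0.754), or -0.01 without KO replicate 3. The library with the lowest Rnase4, KO replicate 3, thus had the highest Ang, and that with the highest Rnase4, KO replicate 2, had the lowest Ang.

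The Rnase4 to Ang ratio of FPKM was 12.99, 12.7 and 12.2 for wild-type and 7.89, 23.4 and 2.16 for the KO. The wild-type ratios were close together, and the KO ratios lay on both sides of them. The log2 ratio differed by -0.74 between genotypes (exact two-sided permutation test, p = 0.7, smallest possible 0.1), and by 0.08 without KO replicate 3. Without KO replicate 2 it differed by -1.49.

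How the authors divided fragments between the pair bears on each of their values. Expressed in the smallest step of each library, Ang held 54.28, 49.29 and 53.52 fragments for wild-type and 78.18, 31.16 and 65.34 for the KO, which are not whole numbers. Rnase4 held 315.66 fragments in KO replicate 3 and 1333.82 to 1611.85 in the other libraries. Their sum was whole in all 6 libraries within 0.006 of a fragment: 1611, 1427 and 1491 for wild-type and 1412, 1643 and 381 for the KO. Taken as shares of that summed pool, Ang had 3.37%, 3.45% and 3.59% of it for wild-type and 5.54%, 1.90% and 17.1% for the KO. These shares are the split as assigned, and how uncertain it is was not measured. The pool itself was lowest in KO replicate 3.

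Rnase1 (NCBI gene 19752, chr14:51145002-51146767), the pancreatic-type RNase known from pancreatic secretion, was the lowest member. Its levels were 1.44, 1.34 and 1.53 FPKM for wild-type, against 0.836, 3.83 and 1.91 FPKM for the KO. KO replicate 1 was below and KO replicates 2 and 3 above all wild-type libraries. These values rest on 11 to 50 fragments per library. The log2 change was 0.28 ± 0.35 (SE; adjusted p = 0.659) between means of 1.43 ± 0.0955 and 2.19 ± 1.52 FPKM, and -0.07 without KO replicate 2.

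Rnase10 set the total of the family. The 8 members summed to 4839, 4991 and 4760 FPKM in wild-type and to 6168, 1538 and 1941 FPKM in the KO. Rnase10 made up 81.2%, 85.7% and 86.7% of the sum for wild-type and 87.2%, 60.2% and 51.2% for the KO. The other 7 members together gave 909, 715 and 632 FPKM across wild-type libraries, whereas KO libraries had 790, 611 and 946 FPKM, and these overlapped. Members described as non-active held 98.6% of the summed FPKM in each wild-type library, and 98.9%, 94.9% and 98.7% in the KO libraries. As a share of a library's normalized counts, the family took 0.576% to 0.616% for wild-type and 0.730%, 0.165% and 0.156% for the KO.

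**Figure D4:**
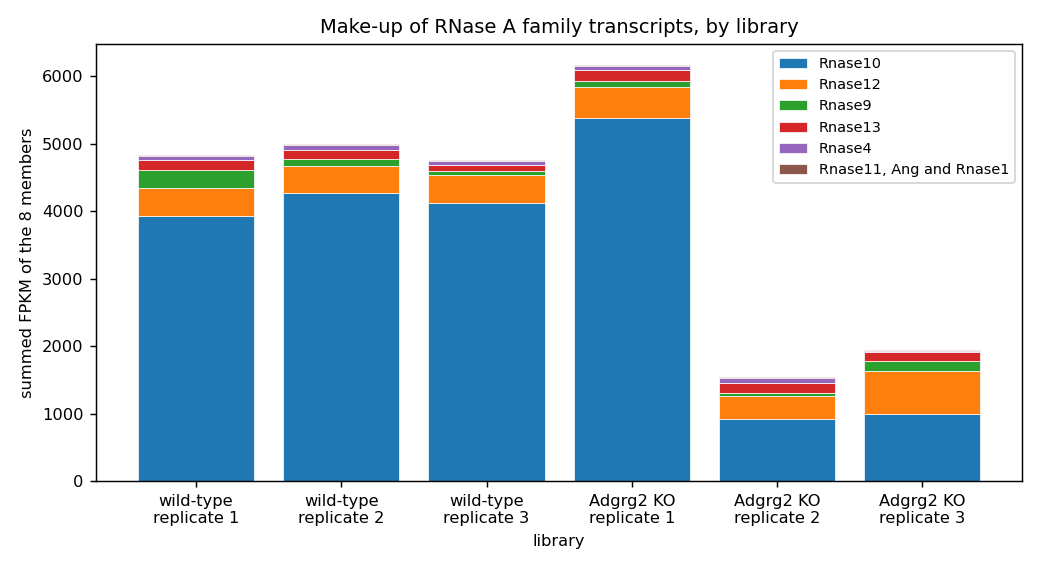
Summed FPKM of the 8 members in each library, divided by member. The bar of KO replicate 1 reaches 6168 FPKM, above the wild-type bars, and those of KO replicates 2 and 3 reach 1538 and 1941 FPKM, with a smaller Rnase10 segment.

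For each member with a mean of at least 10 FPKM, the tested genes with the most similar pattern were found by Euclidean distance between log2(FPKM + 1) profiles, centred on the wild-type mean, over the 6 libraries. Nearest to Rnase4 was Apoe, the gene of a lipid-carrying apolipoprotein, at a distance of 0.0607. Apoe stood at 1395, 1408 and 1389 FPKM with the wild-type genotype and 1331, 1664 and 376 FPKM with the KO genotype, so it too was low in KO replicate 3 alone. Lgi3 and Man2a2 followed at 0.116 and 0.138.

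Rnase10 had 4833427F10Rik, Gm14744 and H2-DMb2 as its nearest profiles, at 0.301, 0.360 and 0.413. The first 2 were low genes, with wild-type means of 3.76 and 5.17 FPKM. In KO replicates 2 and 3 they were at no more than 0.350 FPKM, a larger fall than that of Rnase10, which the pseudocount shrinks. H2-DMb2, a gene of antigen peptide loading, was at 59.2, 60.8 and 61.2 FPKM for wild-type, against 80.4, 16.5 and 11.7 FPKM for the KO, again high in KO replicate 1 and low in the other KO libraries. The nearest profiles of Rnase11 were Prrx1, a mesenchymal transcription factor gene, at 0.0638, Gpr155 at 0.0879 and Tprkb at 0.0898. Among the 3 nearest to Rnase12 were Srp9 and Ddrgk1, at 0.0981 and 0.0983.

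Rnase9 and Rnase13 had no neighbour as close. Gm6792, Defb30 and Xkrx were nearest to Rnase9, at 0.841, 0.880 and 1.105. The beta-defensin gene Defb30 was at 133, 72.8 and 52.4 FPKM across wild-type libraries, whereas KO libraries had 73.7, 37.9 and 156 FPKM, with the libraries of each genotype in the same order as for Rnase9. Among the 3 nearest to Rnase13 were Gimap9 and Rpp30, at 0.442 and 0.490.

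Other genes of the RNase A superfamily were mostly at or near 0. Of 19 listed, 17 were in the table and 8 of these were listed at 0 in every library. Only Eddm3b and Rnase6 were tested, and the highest value among the untested was 2.43 FPKM, for Rnase2a in KO replicate 3. Because these genes include close copies of Ang, fragments that match several copies could be divided among them.

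Eddm3b, an epididymal secretory protein of RNase-like fold, lies between Ang and Rnase1. It was at 211, 194 and 199 FPKM with the wild-type genotype and 307, 488 and 561 FPKM with the KO genotype. Every KO library was above every wild-type library, as in 16.8% of tested genes, with means of 202 ± 8.86 and 452 ± 131 FPKM, or 2.24-fold. The log2 change of 1.12 ± 0.24 (SE; limma) had an adjusted p of 0.142 and did not pass. Without KO replicate 1 it was 1.37 with an adjusted p of 0.0135, and over all alternatives the adjusted p ran from 0.0135 to 0.555. The luminal epithelial list was also higher in every KO library, as given for Rnase10, and its part in the level of Eddm3b was not tested. Rnase6, an antimicrobial RNase of macrophages and epithelia, was at 2.72, 3.13 and 2.12 FPKM for wild-type, against 2.55, 0.542 and 6.43 FPKM for the KO (adjusted p = 0.941).

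Genes that restrain, bind or counter the catalytic members were not called in any fit. All 5 genes of that list were tested, with 0 called and 0 at an unadjusted p under 0.05, and a median log2 change of -0.0026. Rnh1, the cytosolic inhibitor that binds RNases of this family, was at 151, 153 and 153 FPKM across wild-type libraries, whereas KO libraries had 152, 139 and 217 FPKM, with a log2 change of 0.12 ± 0.19 (SE; adjusted p = 0.722). Plxnb2, a receptor reported for angiogenin, stood at 36.3 ± 0.667 and 39.5 ± 3.68 FPKM. Nsun2, a methyltransferase whose marks protect tRNA from angiogenin, stood at 22.3 ± 0.828 and 22.3 ± 2.76 FPKM. Egfr and Trdmt1 were the other 2.

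Ribonucleases of other families gave a similar count. Of 15 listed, 14 were tested, with 0 called, 1 at an unadjusted p under 0.05 and a median log2 change of 0.18. The 3 of highest mean level were Rnasek, Rnaseh2c and Rnaset2b. Rnasek was at 326, 331 and 333 FPKM with the wild-type genotype and 371, 252 and 737 FPKM with the KO genotype. Rnaseh2c, a subunit of the enzyme that removes RNA from DNA hybrids, was at 27.1, 28.4 and 27.8 FPKM for wild-type, against 29.3, 26.8 and 101.2 FPKM for the KO. Rnaset2b, of the T2 family, was at 25.3, 20.6 and 15.8 FPKM across wild-type libraries, whereas KO libraries had 27.7, 26.0 and 67.6 FPKM. In each of these 3 the highest library was KO replicate 3, which also had the highest summed FPKM. Rnaset2b has a near-identical copy, Rnaset2a, so its level is uncertain.

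Chromosomal neighbours, taken from 100 kb before the first to 100 kb after the last member, were 58 RefSeq genes, of which 28 were in the table and 13 tested. Of those 13 none was called. An unadjusted p under 0.05 was found for 5, a larger share than the 17.5% of all tested genes. Without KO replicate 1, 4 were called, among them Eddm3b and Ndrg2 (adjusted p = 0.0425), where 4.23% of all tested genes were. Without KO replicate 3, 2 were called, where 4.93% of all tested genes were. In 6 the KO libraries were higher and in 1, Tppp2, lower without overlap, that is 53.8% of the neighbours against 32.9% of all tested genes. So few neighbours cannot weigh these differences from the shares of all tested genes. The 3 of highest mean level were Eddm3b, Ndrg2 and Pnp. Ndrg2, a differentiation-linked gene, was at 50.7, 42.7 and 45.4 FPKM with the wild-type genotype and 65.1, 79.5 and 99.6 FPKM with the KO genotype (adjusted p = 0.147). Pnp, the purine nucleoside phosphorylase gene, was at 47.2, 51.3 and 48.2 FPKM for wild-type, against 64.0, 44.5 and 30.7 FPKM for the KO (adjusted p = 0.776).

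**Figure D5:**
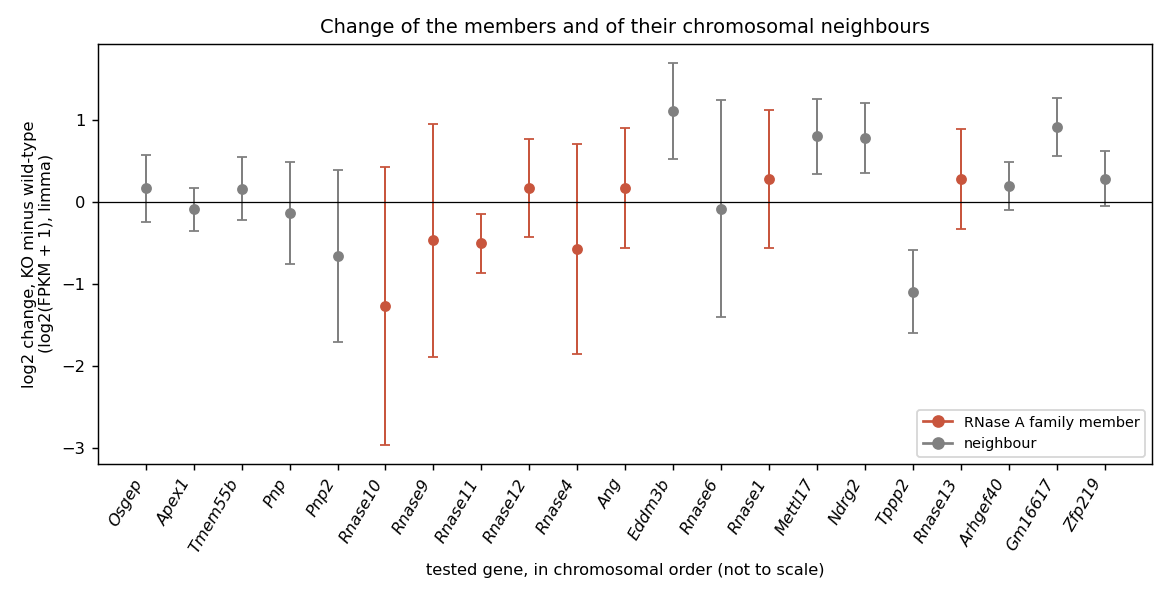
Log2 change of the 8 members (red) and their 13 tested neighbours (grey) in chromosomal order, not to scale, as the limma estimate of KO minus wild-type with its 95% interval on the log2(FPKM + 1) scale. The members run from -1.27 for Rnase10 to 0.28 for Rnase13, and Eddm3b, between Ang and Rnase1, lies at 1.12.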

How the data were processed

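mRNA of caput epididymis was sequenced in 3 wild-type and 3 Adgrg2 KO libraries, with RNeasy extraction and a stranded mRNA library kit, per the labels' protocols. The submitters' processing notes name TopHat2 2.1.1, Cufflinks 2.2.1 and mm10. Not given in the sources used here are the annotation, strand setting, treatment of fragments that match several genes and normalization method. The deposited FPKM values were normalized between libraries, per the file headers. Normalized counts, also deposited, are a signal scaled by the authors and not raw counts, so no count model was fitted and FPKM were tested as below. In the libraries 98.4% to 98.8% of normalized counts below 300 were whole multiples of the library's smallest step (within 0.05). Read as 1 fragment, that step gives 16498436 to 19723832 fragments in a library, a depth that could not be compared with reads.

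All genes averaging at least 1 FPKM were tested with limma 3.58.1 (R 4.3.3) on log2(FPKM + 1), genotype as the only term, empirical Bayes with trend, two-sided, Benjamini-Hochberg over 12799 genes. Fold changes on that scale understate those of low genes. The 2 ratios between members used exact permutation tests (numpy 2.4.6). The fit was checked on simulated data with the same SD per gene in both genotypes, so the check does not cover their unequal spread. Python 3.11.15, pandas 2.3.3 and Biopython 1.88 were used for tables and sequences.

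Members and lists were chosen with earlier results of these data known. The named genes are the members, Rnh1, list genes that pass or else the 3 of highest mean in each list, and the 3 nearest profiles per member. Egfr, Trdmt1, Tppp2, Rnase2a, Rnaset2a and single cell type markers were named after their values were seen, and a few genes the rule covers are not reported here. Spans come from the RefSeq table and promoter sequences from RefSeq (GRCm38.p6, the mm10 build), and coding sequences from GENCODE M21. As alternatives, the pseudocount was set to 0.1 or 0.01, the filter dropped or raised to 5 FPKM, and there were median of ratios scaling, quantile normalization, no trend, normalized counts as the measure, the replicate number as a block, and leaving out each library.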

Additional observations from a re-analysis of the deposited data

How the results depend on the processing

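Over 139 alternative values of the 8 members and the 2 ratios, 131 kept their direction and side of the threshold, 7 changed sign and 1 passed the threshold. Changes of sign were those of Rnase9 without wild-type replicate 1 (0.0565), Rnase12 with quantile normalization (-0.00225) and without KO replicate 3 (-0.0528), Rnase4 (0.0692), Ang (-0.0114) and the Rnase4 to Ang ratio (0.0806) without KO replicate 3, and Rnase1 without KO replicate 2 (-0.0739). Rnase10 passed without KO replicate 1 (-2.10). With a library left out, log2 changes ran from -2.10 to -0.829 for Rnase10, -0.914 to 0.0565 for Rnase9, -0.0528 to 0.408 for Rnase12, -0.962 to 0.0692 for Rnase4, -0.0114 to 0.531 for Ang, -0.0739 to 0.624 for Rnase1 and -1.49 to 0.0806 for the Rnase4 to Ang ratio. Genes called in the whole table were 32, and 16 and 11 with pseudocounts of 0.1 and 0.01, 72 with no filter, 17 with a mean of at least 5 FPKM, 106 with quantile normalization, 6 with normalized counts, 1 with the replicate block and 2 to 631 with a library left out. The cause was not tested. Rnase1 had no value at a mean of at least 5 FPKM. Deviations of same-numbered libraries correlated at -0.113, 0.0318 and 0.0797, so the numbers were not taken to pair the libraries, and under the replicate block no member was called (adjusted p from 0.320 for Rnase11 to 0.753 for Ang; Rnase10 -1.27, adjusted p = 0.417). Depth limits Rnase1, Ang and Rnase11, which rest on at most 122 fragments per library.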
